A study of Mus musculus with 6 samples.

Results

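Signals of 10 genes that mark the mesothelium and the surface of the ovary were compared between mouse ovarian tumour cells that carry the R172H mutation of p53 on both alleles, on 1 allele or on neither. The 10 members are Wt1, Bnc1, Msln, Muc16, Pdpn, Upk1b, Upk3b, Lrrn4, Gpm6a and Nkain4, out of 18194 genes for which the array holds a probe set that names 1 gene alone. Probe sets naming 1 of these symbols and no other gene were taken, 15 in all, and each gene was represented by the probe set with the highest mean log2 signal. All 10 genes passed the filter on dim genes (a mean signal at or above the 40th percentile, 60.2), as did 10916 genes in total. The filter takes the mean over all 6 arrays, so a gene that is low in 1 group can pass through the others. Nkain4, with a homozygous geometric mean of 34.0, passed in this way. Surface epithelial cells, labelled P/K (an abbreviation that the labels do not spell out, shared by all groups), came from ovaries of mice of mixed strain background and were digested with trypsin, grown in serum-containing medium and collected without passage. The homozygous R172H cells (2 arrays) came from animals of 4 weeks, the heterozygous R172H cells (2 arrays) from animals of 9 and 12 weeks, and the wild-type p53 cells (2 arrays) from animals of 9 weeks. Age and homozygosity therefore cannot be told apart. For the homozygous group 1 field of the labels gives the mutation under another gene of the p53 family, so the genotype was read from the titles. The labels do not say whether the arrays of a group came from separate animals or cultures, so p-values measure the spread between these samples only, which may be technical.

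The ovary is covered by a single layer of modified mesothelium that is continuous with the lining of the abdominal cavity. Like other mesothelia it makes the transcription factor WT1 together with a coat of membrane glycoproteins, and unlike most epithelia it holds vimentin beside keratins. This layer can take on a mesenchymal shape in culture and during repair after ovulation. In bulk RNA, fewer cells of this kind and less RNA per cell cannot be told apart.

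The 6 arrays are single-colour and their values are linear probe set signals, with a median between 41.1 and 60.6 per array. The highest of 18 values from probe sets for a bacterial gene, 24.5, served as the background level. Within a group, array 2 minus array 1 had an SD over the tested genes, on the log2 scale, of 1.30 in the homozygous, 0.55 in the heterozygous and 0.60 in the wild-type group, so the homozygous arrays stood apart from each other and each is given below. Wild-type array 2 and heterozygous array 1 lay closest of all pairs (SD 0.31). Every member was above background in all 6 arrays, except Nkain4 in homozygous array 1, and in wild-type cells the members had signals between 852 (Muc16) and 30940 (Upk3b).

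Homozygous R172H against wild-type cells. In the homozygous group the fitted level of each of the 10 surface markers was lower, but unevenly so. The membrane protein genes Nkain4 and Muc16 differed most, Upk1b was at 18.8% and 18.7% of the wild-type level in the 2 homozygous arrays, and Wt1 at 39.97% and 56.8%. Lrrn4 and Bnc1 were far under wild-type in homozygous array 1 only. By limma, a linear model with pooled variances fitted across all tested genes with Benjamini-Hochberg adjustment, 1 of 10 members was called lower at an adjusted p under 0.05, 0 were called higher and 9 did not pass, while 2.25% of all tested genes were called lower and 0.412% higher. The log2 differences of the members ran from -5.88 to -1.07, all 10 below 0, as were 54.6% of all tested genes. Their median was -1.55, against -0.09 over all tested genes (n = 2 arrays per group). Both homozygous arrays lay under both wild-type arrays for 9 of the 10, which was so for 33.8% of all tested genes. A stricter filter, the 60th percentile, left 3 members called lower (3.83% of tested genes), and there were 2 with signals raised to background (4.39%) or with 16 added to them (4.32%).

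**Figure D1:**
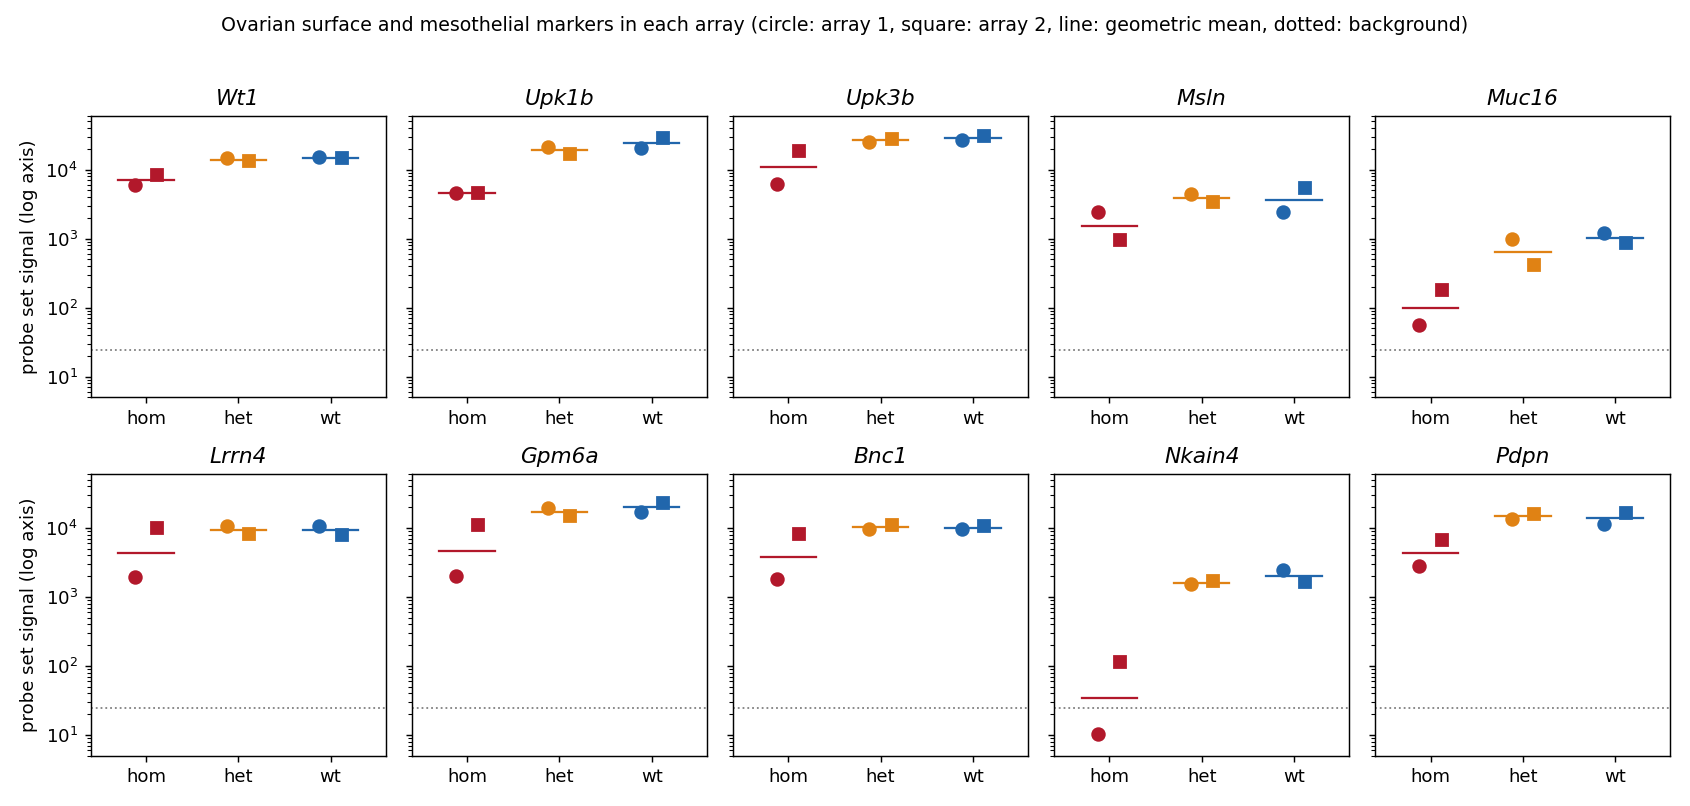
Signal of each of the 10 markers (y axis, log scale, arbitrary intensity units) in the 2 arrays of the homozygous (hom), heterozygous (het) and wild-type (wt) group, with the geometric mean as a line and the background level of 24.5 dotted. Both homozygous points lie under all heterozygous and wild-type points for 9 of the 10 markers, the exception being Lrrn4, whose homozygous array 2 lies among them, and heterozygous and wild-type points spread most for Muc16, from 415 to 1205.

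Transcription factors. Wt1, the zinc finger factor required for formation of the coelomic lining and the gonad, had signals of 5949 and 8457 in homozygous, 14529 and 13269 in heterozygous and 15008 and 14759 in wild-type arrays. The homozygous arrays lay under the other 4, and the difference was the smallest fitted among the members. The log2 difference from wild-type cells was -1.07 ± 0.26 (SE), with a 95% interval from -1.73 to -0.41 and an adjusted p of 0.0848 by limma. Bnc1, which encodes the zinc finger protein basonuclin 1, had 1786 and 8256 in homozygous, 9509 and 11140 in heterozygous and 9671 and 10517 in wild-type arrays. Only homozygous array 1 stood far from the rest, and array 2 was at 81.9% of the wild-type geometric mean. The log2 difference was -1.39 ± 0.72 and did not pass (adjusted p 0.255 by limma).

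Mesothelin, mucin 16 and podoplanin. Msln encodes mesothelin, a glycoprotein tethered to the cell surface by a lipid anchor, and Muc16 the membrane mucin that carries the CA125 antigen and binds mesothelin. Msln had signals of 2433 and 953 in homozygous, 4477 and 3333 in heterozygous and 2457 and 5322 in wild-type arrays. Homozygous array 1 was just under wild-type array 1, and array 2 was the lowest of the 6. Its log2 difference was -1.25 ± 0.59, with a 95% interval from -2.75 to 0.25 that includes 0 (adjusted p 0.229 by limma). Muc16 had 55.4 and 178 in homozygous, 981 and 415 in heterozygous and 1205 and 852 in wild-type arrays. Both homozygous arrays were lower than all others, and array 1 was 2.26 times background. Its log2 difference was -3.35 ± 0.69, or 10.2-fold lower, with an interval from -5.11 to -1.59 and an adjusted p of 0.0672 by limma. Podoplanin, the product of Pdpn, is a mucin-type glycoprotein of mesothelium and lymphatic endothelium that binds ezrin under the membrane. Pdpn had 2793 and 6707 in homozygous, 13596 and 15979 in heterozygous and 11392 and 16464 in wild-type arrays, with no overlap. Its log2 difference was -1.66 ± 0.48 (adjusted p 0.106 by limma).

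Uroplakins. Upk1b and Upk3b encode membrane proteins first known from the plaques of the bladder lining. Upk1b, a tetraspanin, had signals of 4628 and 4584 in homozygous, 21419 and 17037 in heterozygous and 20757 and 29097 in wild-type arrays. The homozygous arrays were nearly equal and far under all others. Upk1b fell by 2.42 ± 0.27 on the log2 scale, 5.34-fold, with an interval from -3.11 to -1.72, and was the called member (adjusted p 0.0270 by limma). The direction and size did not depend on 1 array, but the call did: over 17 alternatives the log2 difference lay between -2.66 and -2.11 and the adjusted p between 0.00751 and 0.436, and 8 of 17 kept it under the threshold. The adjusted p by limma was 0.160 without wild-type array 1, 0.156 without wild-type array 2 and 0.104 without either heterozygous array, which lend the fit part of its estimate of spread. Upk3b, a widely used mesothelial marker, had 6198 and 18766 in homozygous, 25169 and 27977 in heterozygous and 27255 and 30940 in wild-type arrays. Array 1 was far lower and array 2 was at 64.6% of the wild-type level. The log2 difference was -1.43 ± 0.54 (adjusted p 0.161 by limma).

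Upk1b, Upk3b and Gpm6a have several probe sets, and these gave like patterns. The other 3 probe sets of Upk1b differed by -2.52, -3.08 and -2.56 between homozygous and wild-type arrays on the log2 scale. The second probe set of Upk3b differed by -1.78, and that of Gpm6a by -2.20 where the brighter one gave -2.07. All 8 probe sets of these genes were lower in both homozygous arrays than in any wild-type or heterozygous array. The small gap between the homozygous arrays was also seen in 3 of the 4 Upk1b probe sets, where array 2 minus array 1 was -0.01, 0.02 and 0.00 on the log2 scale, and in the fourth it was -0.58. The other members have 1 probe set each.

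**Figure D2:**
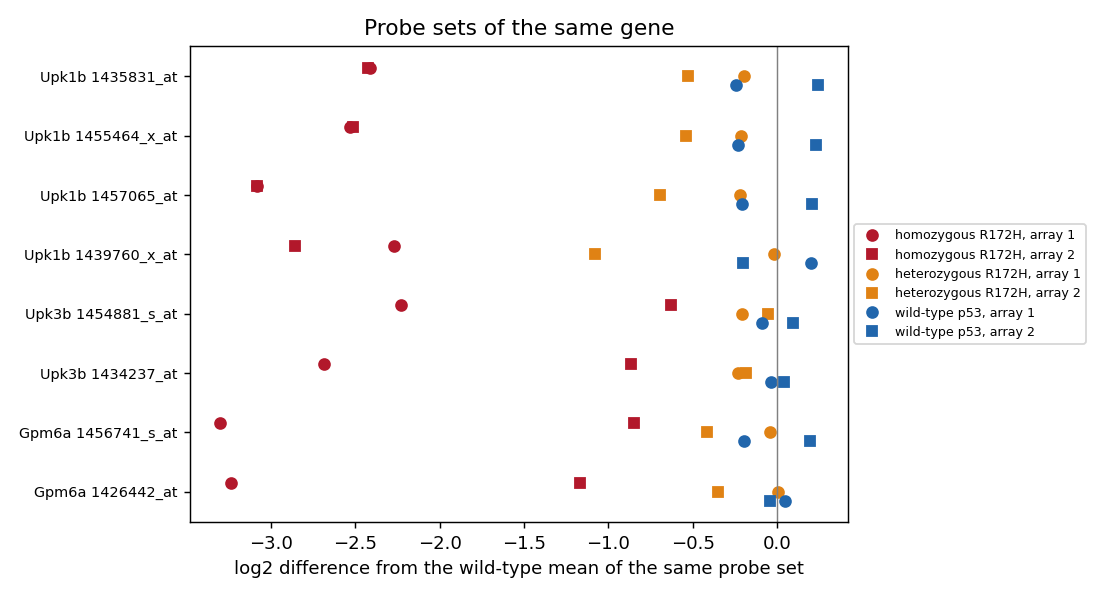
Log2 difference of each array from the wild-type mean of the same probe set (x axis) for the 4 probe sets of Upk1b and the 2 each of Upk3b and Gpm6a (rows). The homozygous arrays coincide in 3 Upk1b rows near -2.4 to -3.1 and are 1.60 to 2.45 apart in the Upk3b and Gpm6a rows.

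Membrane proteins shared with neurons. Lrrn4 encodes a leucine-rich repeat membrane protein, Gpm6a a proteolipid family glycoprotein of neurons, and Nkain4 a protein that interacts with the sodium pump, and all are also mesothelial markers. Lrrn4 had signals of 1938 and 9900 in homozygous, 10669 and 8028 in heterozygous and 10776 and 7998 in wild-type arrays. It was the member whose groups overlapped, since homozygous array 2 lay among the heterozygous and wild-type arrays at 107% of the wild-type level. Its log2 difference of -1.08 ± 0.78 rested on array 1 (adjusted p 0.391 by limma) and was 0.093 without that array. Gpm6a had 2007 and 10979 in homozygous, 19192 and 14811 in heterozygous and 17256 and 22648 in wild-type arrays. Both homozygous arrays were lower, array 1 at 10.2% and array 2 at 55.5% of the wild-type level, with a log2 difference of -2.07 ± 0.80 (adjusted p 0.167 by limma). Nkain4 had 10.2 and 114 in homozygous, 1522 and 1683 in heterozygous and 2445 and 1637 in wild-type arrays. Array 1 was under background, so it was at least 81.6-fold lower than the wild-type geometric mean, and array 2 was 17.6-fold lower. The fitted log2 difference was -5.88 ± 1.11 (adjusted p 0.0587 by limma), and -5.24 with signals raised to background. By limma Nkain4 passed with signals raised to background (adjusted p 0.0258), an offset of 16 (adjusted p 0.0306) or the 60th percentile filter (adjusted p 0.0437). It did not pass in the other alternatives that kept both arrays of each group, with an adjusted p of up to 0.150. Its log2 difference was -7.62 without homozygous array 2, from a signal under background, and -4.14 without array 1.

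The homozygous arrays each. Set against the wild-type geometric mean, homozygous array 1 had 9 of 10 members under 50%, where 23.2% of tested genes were, and 8 under 25%, where 11.4% were. Homozygous array 2 had 5 of 10 under 50% (14% of tested genes) and 3 under 25% (4.84% of tested genes). The members' median level was 19.6% of wild-type in array 1 and 52.2% in array 2. The members showed several patterns. Upk1b was equally low in both. Msln was lower in array 2, at 26.4% of the wild-type level, than in array 1, at 67.3%. The other 8 were higher in array 2 than in array 1, by between 1.42-fold for Wt1 and 5.47-fold for Gpm6a, and by at least 4.64-fold for Nkain4, whose array 1 signal was under background, and 52.7% of all tested genes were higher in array 2. The median of array 2 minus array 1 on the log2 scale was 1.64 over the members and 0.04 over all tested genes. The median of array 2 minus array 1 was -0.23 in the heterozygous and 0.15 in the wild-type pair over the members.

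**Figure D3:**
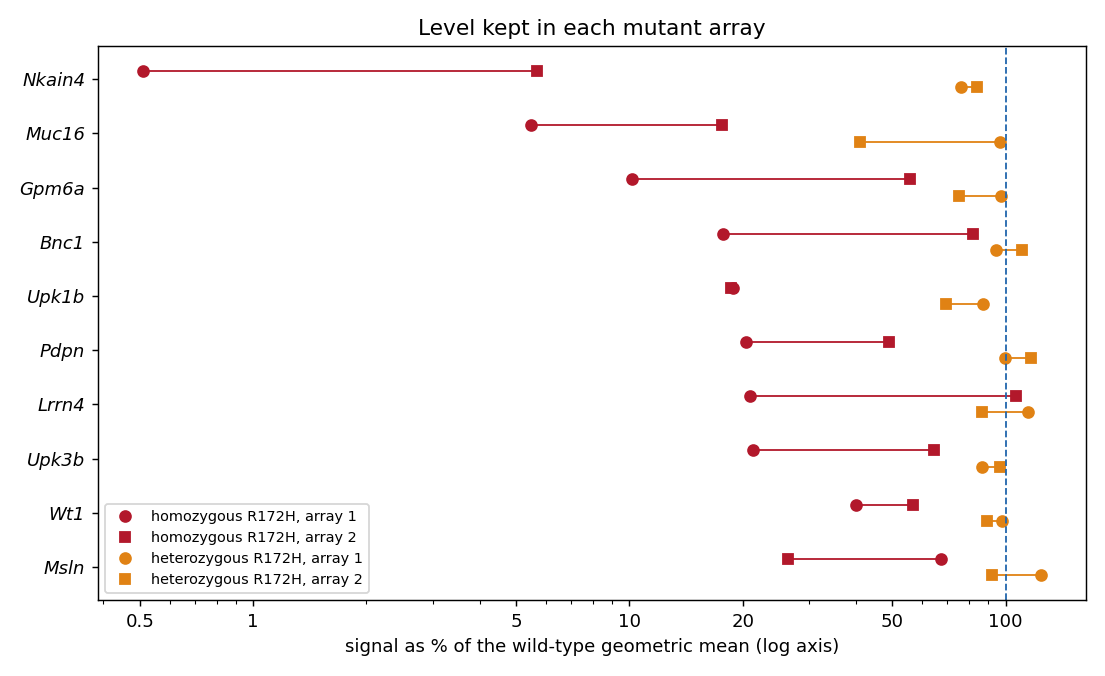
Signal of each marker in the homozygous (red) and heterozygous (orange) arrays as a percentage of the wild-type geometric mean (x axis, log scale, dashed line at 100%), with circles for array 1 and squares for array 2. Homozygous values run from 0.51% for Nkain4 in array 1, a signal under background, to 107% for Lrrn4 in array 2, and the order of the arrays is turned for Msln.

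When the model was fitted without homozygous array 2, so that array 1 alone stood for the group and was assumed to vary like the others, 9 of 10 members were called lower than in wild-type cells, Msln being the exception (adjusted p 0.000229 to 0.0238 for the 9 by limma), beside 17.4% of all tested genes. Without homozygous array 1, Nkain4 and Upk1b were called (adjusted p 0.00587 and 0.0213 by limma), beside 5.02% of all tested genes called lower. The log2 difference of Wt1 was -1.32 without array 2 and -0.82 without array 1, and that of Pdpn -2.29 and -1.03. Differences without array 2 and without array 1 were -2.23 and -0.63 for Upk3b, -3.30 and -0.85 for Gpm6a, and -2.50 and -0.29 for Bnc1. Those of Muc16 were -4.19 and -2.51, those of Lrrn4 -2.26 and 0.093, and those of Nkain4 -7.62 (from a signal under background) and -4.14. Msln went the other way, with -0.57 without array 2 and -1.92 without array 1.

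**Figure D4:**
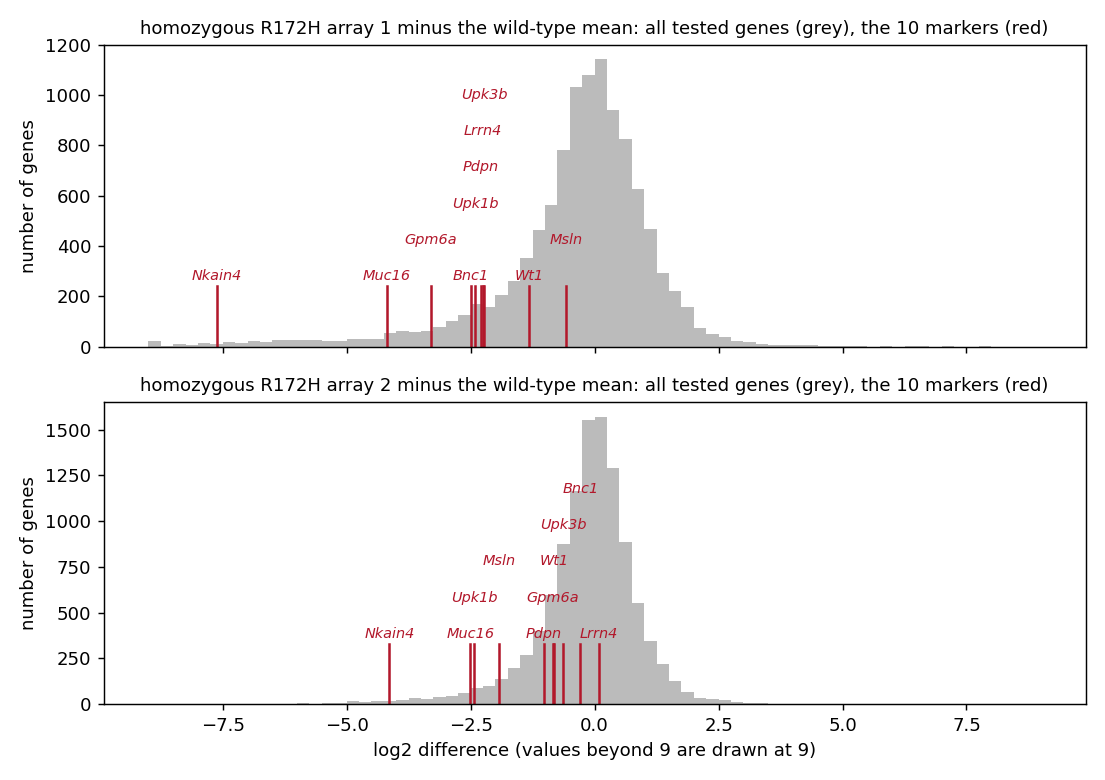
Histograms of the log2 difference from the wild-type mean for the 10916 tested genes (x axis, 0.25 per bar; y axis, number of genes), for homozygous array 1 above and array 2 below, with the 10 markers as red lines. In array 1 all markers but Wt1 and Msln lie under -2, and in array 2 only Nkain4, Muc16 and Upk1b do.

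Promoters. In Lrrn4, Gpm6a, Bnc1, Upk3b and Pdpn homozygous array 1 lay between 10.2% and 21.3% and array 2 between 49.0% and 107% of the wild-type level, and their promoters are shown for this likeness, which was noted after their values were seen. The 250 bases before the start of each gene are printed on the gene's strand, from RefSeq on build GRCm38.p6: Lrrn4 at chr2:132880863-132881112 (minus strand), Gpm6a at chr8:54779184-54779433 (plus strand, the first of 2 listed starts), Bnc1 at chr7:81992300-81992549 (minus strand), Upk3b at chr5:136038246-136038495 (plus strand) and Pdpn at chr4:143299565-143299814 (minus strand). Capitals mark the letters GGAATG, the core recognised by TEAD factors, on either strand.
Lrrn4: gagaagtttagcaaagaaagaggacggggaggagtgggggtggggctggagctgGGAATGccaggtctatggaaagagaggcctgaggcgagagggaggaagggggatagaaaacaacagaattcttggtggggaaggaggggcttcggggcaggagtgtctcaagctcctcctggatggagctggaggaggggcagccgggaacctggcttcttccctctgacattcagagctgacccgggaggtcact
Gpm6a: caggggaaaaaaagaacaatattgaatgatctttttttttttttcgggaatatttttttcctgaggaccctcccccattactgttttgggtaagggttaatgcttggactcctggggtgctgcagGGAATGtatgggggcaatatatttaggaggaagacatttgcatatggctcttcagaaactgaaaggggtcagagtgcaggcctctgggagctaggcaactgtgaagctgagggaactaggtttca
Bnc1: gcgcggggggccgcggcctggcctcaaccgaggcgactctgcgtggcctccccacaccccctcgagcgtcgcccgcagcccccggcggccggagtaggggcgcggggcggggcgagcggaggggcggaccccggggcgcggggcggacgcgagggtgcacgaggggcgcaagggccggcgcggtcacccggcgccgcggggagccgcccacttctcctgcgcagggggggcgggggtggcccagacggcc
Upk3b: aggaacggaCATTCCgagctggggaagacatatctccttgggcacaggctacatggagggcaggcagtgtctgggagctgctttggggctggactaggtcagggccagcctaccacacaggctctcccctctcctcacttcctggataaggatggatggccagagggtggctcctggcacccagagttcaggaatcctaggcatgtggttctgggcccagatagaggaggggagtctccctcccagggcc
Pdpn: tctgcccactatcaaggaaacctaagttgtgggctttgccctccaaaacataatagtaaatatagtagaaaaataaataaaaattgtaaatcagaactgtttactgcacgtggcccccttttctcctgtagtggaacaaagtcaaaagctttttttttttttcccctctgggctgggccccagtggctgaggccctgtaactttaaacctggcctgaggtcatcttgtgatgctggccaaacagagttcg
Promoters of 6 members were matched by symbol, the other being Muc16, and Wt1, Upk1b, Msln and Nkain4 were not matched. GGAATG was found in 3 of these 6, Lrrn4, Gpm6a and Upk3b, at 196, 125 and 241 bases before the start, and in 12.6% of the first-listed promoters of all 27025 genes over the same length. It was not in the windows of Bnc1, Pdpn and Muc16, nor in that of the second listed start of Gpm6a. GCGGGGGCG, a site shared by WT1 and the EGR factors, was found in 0 of 6 (2.56% of all promoters). The looser form GNGGGNGNG, which includes every GCGGGGGCG, was found in 3 of 6 (39.6% of all). The GATA letters AGATAA (10.3% of all) and the AP-1 letters TGANTCA (6.87% of all) were in none of the 6. Bnc1 had the promoter richest in G and C, 83.6%, against 59.2% for Lrrn4, 60.8% for Upk3b, 44.4% for Gpm6a and 43.2% for Pdpn. A match of letters is a description of the window and not a site shown to be bound.

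Homozygous against heterozygous R172H cells. The fitted level of each of the 10 markers was again lower in cells with both alleles mutated than in cells that also have a wild-type allele. This comparison shares the homozygous arrays with the one above, and its values are given beside it rather than as a second line of evidence. The members' log2 differences ran from -5.56 to -0.97 with a median of -1.60, against -0.08 over all tested genes, all 10 being below 0 (54.3% of all tested genes), and the groups did not overlap for 9 of 10, with lower homozygous values (34.2% of all tested genes). Upk1b fell by 2.05 ± 0.27, 4.15-fold (interval -2.75 to -1.36, adjusted p 0.0360 by limma), and was the member called out of 10, where 3.22% of tested genes were called lower and 0.87% higher. With the filter at the 60th percentile, signals raised to background or 16 added to them, 2 members were called lower, beside 4.56%, 5.19% and 4.98% of tested genes. The call of Upk1b was lost without any 1 of the wild-type or heterozygous arrays. So were nearly all calls over the tested genes in those fits. Its log2 difference lay between -2.22 and -1.83 over 17 alternatives.

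Nkain4 differed by -5.56 ± 1.11 from heterozygous cells (adjusted p 0.0594 by limma), homozygous array 1 being at least 65.3-fold lower. Muc16 differed by -2.68 ± 0.69 (adjusted p 0.0836), Gpm6a by -1.84 ± 0.80 (adjusted p 0.192) and Pdpn by -1.77 ± 0.48 (adjusted p 0.0875), all by limma. Wt1 stood at 42.8% and 60.9% of the heterozygous geometric mean in the homozygous arrays, a log2 difference of -0.97 ± 0.26 (adjusted p 0.0879 by limma). Bnc1, Msln, Upk3b and Lrrn4 differed by -1.42, -1.34, -1.30 and -1.08 and did not pass. Without homozygous array 2, 9 of 10 members were called lower (18.5% of all tested genes), and without array 1 Nkain4 and Upk1b were (5.47% of all tested genes). As against wild-type cells, Lrrn4 had the opposite sign, 0.097, without array 1.

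Heterozygous R172H against wild-type cells. With 1 mutated allele the markers lay between 40.9% and 124% of their wild-type levels in single arrays. By limma 0 of 10 members were called, and 0% of all tested genes were, while at an unadjusted p under 0.05 there were 0 members and 71 of 10916 tested genes. The members' log2 differences ran from -0.67 for Muc16 to 0.11 for Pdpn, with a median of -0.12, against 0.00 over all tested genes. The value of Muc16 came mainly from heterozygous array 2, at 40.9% of the wild-type level, while array 1 was at 96.8%. Wt1 was at 97.6% and 89.2% and was the member whose groups did not overlap, with lower heterozygous values, which was so for 12.8% of tested genes.

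These intervals differ in width and do not show that the groups are alike. The 95% interval of the log2 difference was -0.76 to 0.56 for Wt1 and -1.06 to 0.33 for Upk1b, so changes of 2-fold or more in Wt1 lay outside it. For Lrrn4 it was -1.97 to 1.96, for Gpm6a -2.26 to 1.80 and for Nkain4 -3.13 to 2.49, since the spread between the homozygous arrays enters the pooled error. Among the 4 heterozygous and wild-type arrays the highest signal exceeded the lowest by 1.13-fold for Wt1, 1.17-fold for Bnc1 and 1.23-fold for Upk3b. That ratio was 2.17-fold for Msln and 2.91-fold for Muc16, the members that varied most among these arrays.

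Other genes of the ovarian surface. Of a list of 34 further genes of surface epithelium and mesothelium, 33 had a probe set, 32 were tested and Calb2, calretinin, was too dim. Against wild-type cells 3 of 32 were called lower and 0 higher by limma (2.25% and 0.412% of all tested genes), with 28 of 32 negative (54.6% of all tested genes) and a median log2 difference of -2.09. Homozygous arrays lay under the wild-type arrays for 25 of them (33.8% of all tested genes) and above for 1, the orphan nuclear receptor gene Nr2f2, named after its values were seen. For arrays lying above, no share over all tested genes was counted. Of the 32, 25 were higher in homozygous array 2 than in array 1, as most members were.

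The called genes, like Upk1b, were low in both homozygous arrays. With 2 arrays per group a call favours genes whose arrays lie close, so this likeness is part of what selected them. Uncalled genes were lower in both as well, since 25 of the 32 did not overlap the wild-type arrays and 3 were called. Lhx9, a LIM homeobox factor needed for gonad formation, had signals of 68.9 and 113 in homozygous, 4011 and 3194 in heterozygous and 5271 and 4673 in wild-type arrays, and fell by 5.81 ± 0.32 on the log2 scale (adjusted p 0.0110 by limma). Dpp4, a membrane peptidase, had 24.6 and 62.5 in homozygous against 1078 and 1103 in heterozygous and 570 and 863 in wild-type arrays, and fell by 4.16 ± 0.50 (adjusted p 0.0310 by limma). Its homozygous array 1 signal was at the background level of 24.5. With the mean of all its probe sets the log2 difference was -3.73 ± 0.93 and was not called (adjusted p 0.0986 by limma). Bcam, a laminin receptor, had 108 and 104 in homozygous against 751 and 914 in heterozygous and 489 and 750 in wild-type arrays, and fell by 2.52 ± 0.29 (adjusted p 0.0293 by limma). All 3 also fell against heterozygous cells, with log2 differences of -5.34 for Lhx9, -4.80 for Dpp4 and -2.97 for Bcam. Their direction held in each alternative. The log2 difference from wild-type cells lay between -6.17 and -5.45 for Lhx9, -4.84 and -3.49 for Dpp4, and -2.82 and -2.21 for Bcam. The calls against wild-type cells were lost without any 1 of the wild-type or heterozygous arrays, as was every other call in those fits.

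Brighter members of this list did not pass. Aldh1a1, a retinaldehyde dehydrogenase, had 1780 and 7993 in homozygous, 22817 and 26380 in heterozygous and 17599 and 25024 in wild-type arrays. Ezr, which encodes ezrin, the partner of podoplanin, had 11473 and 16245 in homozygous, 25473 and 23834 in heterozygous and 23760 and 28329 in wild-type arrays. Both genes were lower in the homozygous arrays with no overlap, Ezr to 44.2% and 62.6% of the wild-type level, close to the shares of Wt1. Keratins of the surface differed between the homozygous arrays in either direction, as shown by the keratin genes of the list, named after their values were seen. Krt7 was at 0.34% of wild-type in homozygous array 1 and 9.78% in array 2, Krt8 at 11.9% and 36.5%, Krt19 at 45.3% and 5.19%, and Krt18 at 291% and 64.3%.

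**Figure D5:**
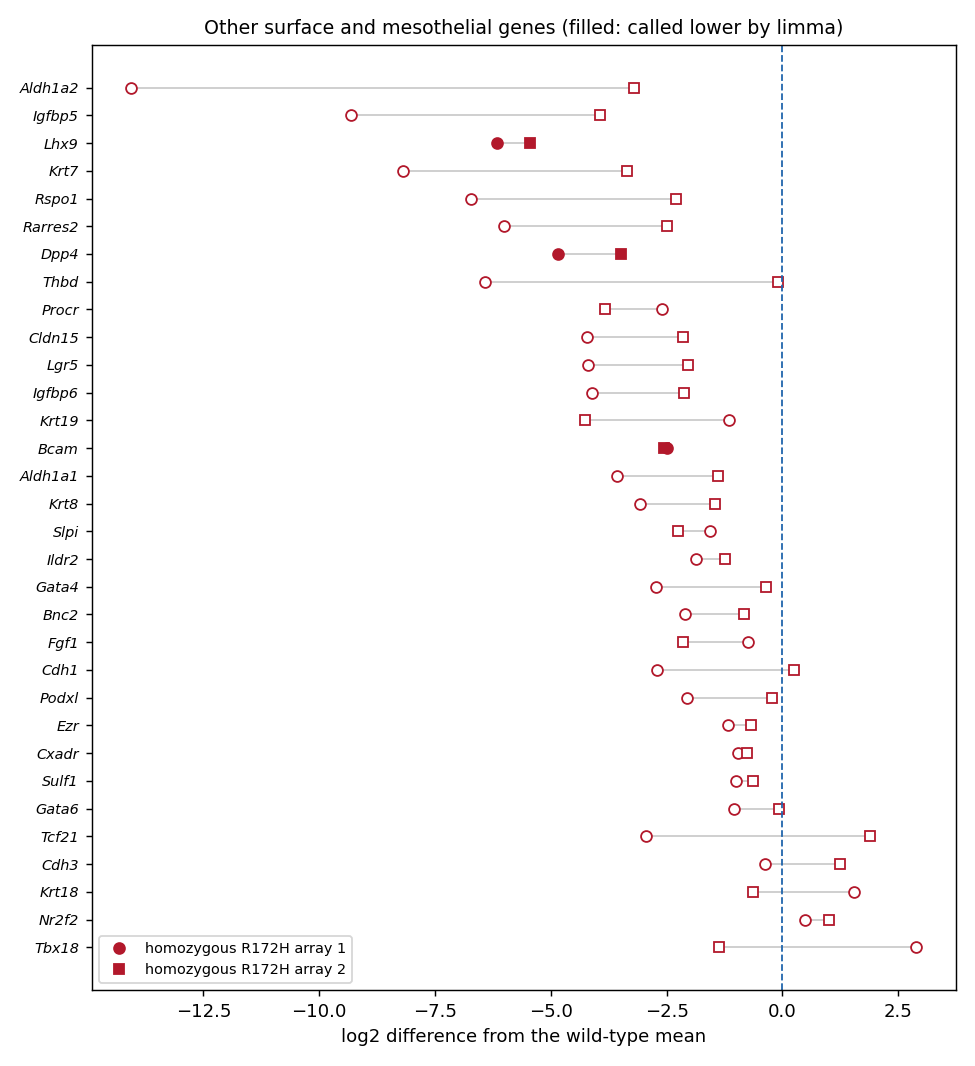
Log2 difference of each homozygous array from the wild-type mean (x axis, dashed line at 0) for the 32 tested further genes of surface epithelium and mesothelium (rows, ordered by the fitted difference), with circles for array 1 and squares for array 2, signals under background included as deposited. Lhx9, Dpp4 and Bcam, the filled points, were called lower, and 25 of 32 genes have array 2 to the right of array 1.

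Markers of other cells. Other genes of the bladder lining had low signals in every group: the summed signal of Upk1a, Upk2, Upk3a, Krt5 and Krt20 was 118 and 167 in homozygous, 182 and 182 in heterozygous and 272 and 216 in wild-type arrays. Of these only Upk1a passed the filter, with 49.8 and 65.0 in homozygous, 71.3 and 72.3 in heterozygous and 82.9 and 83.6 in wild-type arrays. It was lower in the homozygous arrays with no overlap (log2 difference -0.55, adjusted p 0.197 by limma, not called). Of 3 lymphatic markers other than podoplanin, Prox1 and Lyve1 did not pass the filter on dim genes. Flt4, a receptor for lymphatic growth factors, had 742 and 255 in homozygous, 96.2 and 128 in heterozygous and 122 and 63.3 in wild-type arrays, higher in the homozygous arrays with no overlap (log2 difference 2.31, adjusted p 0.0940 by limma, not called). The summed signal of the 3 was 774 and 261 in homozygous, 153 and 182 in heterozygous and 170 and 102 in wild-type arrays. The filament gene Vim, common to mesothelium and mesenchyme, had 29983 and 28015 in homozygous, 29861 and 28426 in heterozygous and 22650 and 32125 in wild-type arrays. These groups overlapped, as did those of Acta2, smooth muscle actin, with 9553 and 25160 in homozygous, 19755 and 15143 in heterozygous and 11058 and 19986 in wild-type arrays. Of 15 mesenchymal genes 1, Pdgfra, was called lower and 0 higher (2.25% and 0.412% of all tested genes). Their median log2 difference from wild-type cells was 0.06, over genes that differed in both directions. Homozygous arrays lay under the wild-type arrays for 3 of the 15 (33.8% of all tested genes) and above for 3, a direction with no share counted over all tested genes. The summed signal was 90908 in homozygous array 1 and 181331 in array 2, against 121713 and 121548 in heterozygous and 114069 and 120626 in wild-type arrays.

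Summed signals of macrophage and endothelial markers were also lower in both homozygous arrays, and their part in the results was not tested. Of 11 macrophage genes 9 were tested and 3 called lower against wild-type cells (Lyz2, Ctss and Mpeg1). Against heterozygous cells Fcer1g was called in addition. Over all tested genes 2.25% were called lower and 0.412% higher against wild-type cells, and 3.22% lower against heterozygous cells. These shares also stand beside the counts of the lists below. The summed signal of the 11 macrophage genes was 515 and 716 in homozygous, against 5549 and 5665 in heterozygous and 3156 and 2608 in wild-type arrays. Lyz2 and Ctss were under background in both homozygous arrays, and Mpeg1 had 27.8 and 19.4 there. These 3 genes passed the filter through their heterozygous and wild-type signals, so the filter itself favoured calls in the lower direction. Lyz2 had 1200 and 999 in heterozygous and 603 and 577 in wild-type arrays. Ctss had 1347 and 1152 in heterozygous and 660 and 476 in wild-type arrays. The 2 macrophage genes with the highest mean log2 signal over all 6 arrays, homozygous arrays included, were not called. Csf1r had 55.7 and 488 in homozygous, 1111 and 756 in heterozygous and 770.3 and 599 in wild-type arrays, and Cd68 had 67.7 and 71.3 in homozygous, 386 and 1687 in heterozygous and 179.9 and 337 in wild-type arrays. Of 8 endothelial genes 4 were tested and 3 called lower (Kdr, Esam and Icam2). Their sums were 2017 and 2898 in homozygous, 9189 and 10471 in heterozygous and 10553 and 11032 in wild-type arrays. Most of each sum was Esam, with 1791 and 2610 in homozygous, 6836 and 7906 in heterozygous and 7222 and 8168 in wild-type arrays. Eng, the other tested gene, was not lower, at 101% and 131% of the wild-type level in the homozygous arrays. Icam2 was under background in both homozygous arrays and likewise passed the filter through the other arrays. Pecam1, Cdh5, Tek and Tie1 did not pass it. No gene of any list was called against wild-type cells in a fit without 1 of the wild-type or heterozygous arrays. Of 10 granulosa and theca genes with a probe set 5 were tested and 0 called, the brightest being Star and Inha, with sums of 678 and 3207 in homozygous, 3707 and 5326 in heterozygous and 8770 and 5311 in wild-type arrays. Of 5 genes of Mullerian epithelium 3 were tested and 0 called, the brightest over all 6 arrays being Emx2 and Ovgp1. Their sums were 925 and 1660 in homozygous, 3583 and 4307 in heterozygous and 3854 and 3540 in wild-type arrays. Most of each sum was Emx2, with 716 and 1354 in homozygous, 3289 and 4062 in heterozygous and 3581 and 3309 in wild-type arrays. Ovgp1 was higher in the homozygous arrays with no overlap, at 123 and 183. It had 67.5 and 87.4 in heterozygous and 103 and 60.1 in wild-type arrays. For the other 2 tested genes the homozygous arrays were lower with no overlap.

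Genes with the most similar pattern. The mean profile of the 10 members, centred on its mean over the 6 arrays, was -2.10 and -0.68 in homozygous, 0.72 and 0.51 in heterozygous and 0.71 and 0.84 in wild-type arrays on the log2 scale. Members departed from it by a root mean square difference of between 0.27 for Pdpn and 1.83 for Nkain4. The 5 tested genes outside the list with the smallest such difference were Cst11 (0.09), Iigp1 (0.13), Slc4a4 (0.13), Ccdc69 (0.13) and Bbs1 (0.14), where the median of all tested genes was 1.09. Ccdc69, for example, had signals of 272 and 649 in homozygous, 2064 and 1985 in heterozygous and 1810 and 2110 in wild-type arrays. Cst11 was under background in homozygous array 1, and Iigp1 and Bbs1 had signals of 27.4 there. This likeness is a description over 6 arrays.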

How the data were processed

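Messenger RNA was measured on 6 Affymetrix mouse arrays, 2 per group. The deposited values are linear probe set intensities, from biotin-labelled total RNA per the labels' protocols. RMA is named in the submitters' processing notes, with a version not given in the sources used here, but the middle 96% of probe sets averaged 500 in every array while quantiles differed, the form of MAS 5.0 signals. Of 45101 probe sets, 34958 named 1 gene symbol in the platform annotation, 932 several and 9211 none. Symbols were updated by Entrez identifier through RefSeq (34754 matched).

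The deposited intensities were turned to log2 with no offset. In R 4.3.3, limma 3.58.1 estimated a mean for each of the 3 groups from the 6 arrays without covariates, and moderated the variances (3 residual and 2.26 prior degrees of freedom), at a Benjamini-Hochberg adjusted p under 0.05 over all 10916 tested genes. The fit was checked on simulated data. Percentages of wild-type use geometric means of 2 arrays. The members and lists were chosen with earlier results of these data known. The genes named are the 10 members, the 5 nearest in pattern and the called genes of each other list. The 2 genes of each list with the highest mean log2 signal over all 6 arrays, called the brightest, are also named. Nr2f2, Eng, the keratins and the genes named for being dim or as part of a sum were added after their values were seen. Alternatives covered scaling, filter, probe set choice, background, an offset of 16, the groups in the fit, a replicate block, unequal spread and leaving out arrays. Precision is limited by how few arrays there are. Python 3.11.15 and matplotlib 3.10.9 drew the figures.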

Additional observations from a re-analysis of the deposited data

How the results depend on the processing

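The number of members called lower in homozygous cells was 1 against either group and moved with most settings. It was 0 in both comparisons with arrays centred on their medians, no filter on dim genes, only the 2 groups compared, the replicate block, or after dropping wild-type array 2 together with heterozygous array 1, a pair chosen after seeing the data. Against wild-type and heterozygous cells it was 3 and 2 under a 60th percentile filter, 2 and 2 with signals raised to background, 2 and 2 with an offset of 16, and 1 and 2 with a spread differing between groups. Over all tested genes, 246 and 351 were called lower in the main fit and 171 and 244 with centred arrays. Those numbers were 0 and 16 with no filter, 0 and 9 with only the 2 groups compared, and 0 and 17 with the replicate block. With a spread differing between groups they were 178 and 254. Leaving out 1 array at a time gave 0 to 9 members in both comparisons, 0 without any wild-type or heterozygous array. The median log2 difference of the members lay between -2.35 and -0.94 against wild-type and between -2.33 and -0.93 against heterozygous cells with 1 array left out, and moved by less than the spread between arrays (SD 0.72) in the other settings. Centring the arrays moved the median of all genes against wild-type cells from -0.09 to 0.22 and that of the members to -1.24. Of 170 member values against wild-type cells under these alternatives 147 stayed on their side of the threshold with the same sign. Lrrn4 turned sign in both comparisons without homozygous array 1, and with arrays left out ran from -2.26 to 0.093 against wild-type and from -2.26 to 0.097 against heterozygous cells. Between heterozygous and wild-type cells 10 of 170 values near 0 turned sign, 1 of them Lrrn4 with centred arrays (0.079) and the others with arrays left out, where Lrrn4 ran from -0.42 to 0.21, Msln from -0.46 to 0.65, Bnc1 from -0.085 to 0.20, Pdpn from -0.16 to 0.49 and Upk3b from -0.22 to 0.038. The cause of these changes was not tested.

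The number of all genes called was 291 against wild-type and 446 against heterozygous cells, and ranged from 0 to 2663 and from 0 to 2841 over the alternatives. Among the other surface genes 3 were called in each comparison, against 0 and 1 with no filter or with the replicate block and 0 and 0 with only the 2 groups compared. Whether replicate numbers pair the arrays cannot be told from these values. Differences between arrays 1 and 2 of a group correlated across genes at 0.16, -0.10 and -0.30 between groups. With the replicate block 0 and 19 genes were called against wild-type and heterozygous cells. Signals near background, as for Nkain4 and Muc16 in homozygous cells, limit the precision of their folds.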
